A study of Schizosaccharomyces pombe with 21 samples.

Results

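The flocculin genes of the fission yeast Schizosaccharomyces pombe and mbx2, the gene of the transcription factor that switches them on, were followed across 7 genotypes. The 6 loci taken were gsf2 (SPCC1742.01), pfl2 (SPAPB15E9.01c), pfl3 (SPBC947.04), pfl5 (SPBC1289.15), pfl7 (SPBC359.04c) and mbx2 (SPBC317.01), found by their identifiers among 6988 counted loci. All 6 were present in the count tables of both experiments and all 6 passed the filter on low counts in both. The 4 flocculin-like genes pfl4, pfl6, pfl8 and pfl9 and the 2 mating agglutinin genes map4 and mam3 served as the rest of the family for comparison.

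Flocculins are wall-anchored proteins that stick cells to one another by binding galactose residues on the surface of neighbouring cells. In S. pombe, Gsf2 is known as the main flocculin, the Pfl proteins are its relatives, and Mbx2 is a MADS-box factor that can induce gsf2 and several pfl genes. Flocculation is normally held off in rich medium, and repressors such as Rfl1 (Gsf1) and the Tup11, Tup12 and Ssn6 corepressors act against it.

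Poly(A)+ RNA was sequenced from 21 libraries, 3 per genotype, and each genotype is called a strain below. The first experiment held asp1-WT, STF6 (asp1-W386*) and STF9 (asp1-W493*), grown in ePMGT minimal medium; Asp1 makes inositol pyrophosphates with its kinase domain and degrades them with its pyrophosphatase domain, and both nonsense alleles cut into the latter. The second held kcs1-WT and 3 missense mutants, kcs1-R332T, kcs1-L338R and kcs1-E834K, all grown in YES, a medium made with yeast extract; Kcs1 is an inositol hexakisphosphate kinase, and these alleles came from suppressors of STF toxicity. All cultures were grown to log phase at 30 °C, and all strains were labelled h+. In the paper's strain list every strain carried auxotrophic leu1, ura4, his3 and ade6 alleles. By that list a drug resistance marker sat beside the asp1 locus in the first experiment and the kcs1 locus in the second. Medium, marker and experiment changed together, so levels of the 2 experiments are set side by side without a test. The asp1-WT libraries were labelled with 2 strain numbers, BS216 for replicate 1 and AS478 for replicates 2 and 3. The paper's strain list holds BS216 but not AS478, so it does not give the marker or auxotrophic alleles of AS478. Without replicate 1 the counts of flocculin loci called in STF6 and STF9 were the same.

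Counted reads ran from 20547260 to 35919903 per library in the asp1 experiment and from 19515604 to 27776638 in the kcs1 experiment. Each of the 6 loci had at least 183 counts in every library, where counting error alone is at most 7.39% of the value. In 5 of the 42 combinations of gene and strain the spread between replicates was no larger than counting error, pfl7 in STF6 and STF9 among them. Both mutant genes carried point changes, and their transcript levels therefore did not check the labels, while ura4, deleted in the strain background, had 0 counts in all 21 libraries. Of the 7 mating-type markers examined, none was at 0 in any library. In the asp1 experiment the summed level of the P cell markers map2 and map3 ran from 32.6 to 104 RPKM (reads scaled by exon length and by the library total), with map3 at 25.3 in asp1-WT, 72.1 in the STF6 libraries and 80.1 in those of STF9. The summed level of the 5 M cell markers there ran from 36.8 to 44.5 RPKM, but they did not move alike. In asp1-WT, STF6 and STF9 in turn, mam1 was at 19.9, 12.6 and 11.9 RPKM and mfm1 at 1.33, 4.01 and 3.30. In the same order mfm2 was at 9.61, 16.5 and 12.4, mam2 at 5.30, 5.61 and 4.97, and mfm3 at 4.75, 4.83 and 5.16. In the kcs1 experiment the sum of the P cell markers ran from 16.4 to 21.3 RPKM and that of the M cell markers from 21.9 to 29.0. The part of these markers in the results below was not tested.

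Of the flocculin genes, 4 are built around tandem repeats, which bear on how short reads can be placed. In the RefSeq gene models of assembly ASM294v3, located by locus tag, gsf2 held 6 copies of a 234-base unit over 34.3% of its coding sequence and pfl2 held 6 copies of a 48-base unit over 9.35%. A 105-base unit occurred in 9 copies in pfl3, over 34.2% of the coding sequence, and in 16 copies in pfl5, over 45.1%. All 4 unit lengths are whole numbers of codons, and no repeat array was found in pfl7 or mbx2. The second copy of each array is printed 5′ to 3′ on the coding strand, to show what the repeated part of each gene looks like. In gsf2 and pfl2 the second and the third copies were identical. The units of pfl3 and pfl5 have the same length, and the pfl5 array was read from the codon at which it matched pfl3 best. In that phase the printed units shared 75 of 105 bases, and capitals mark the 30 bases that differ between them.
gsf2: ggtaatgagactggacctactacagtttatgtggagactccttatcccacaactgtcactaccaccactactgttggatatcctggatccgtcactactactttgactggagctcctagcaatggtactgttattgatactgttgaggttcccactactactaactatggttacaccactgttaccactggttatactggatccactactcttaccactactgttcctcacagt
pfl2: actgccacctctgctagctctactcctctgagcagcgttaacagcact
pfl3: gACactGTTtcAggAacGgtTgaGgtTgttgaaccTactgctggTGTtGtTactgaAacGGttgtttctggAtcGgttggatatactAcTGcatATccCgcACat
pfl5: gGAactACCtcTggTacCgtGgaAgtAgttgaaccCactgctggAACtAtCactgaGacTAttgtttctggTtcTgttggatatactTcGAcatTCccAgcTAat

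Reads in these libraries were 51 bases long. Of all 51-base windows of the exons, 60.3% of gsf2, 85.6% of pfl2, 66.6% of pfl3 and 52.1% of pfl5 occurred once in the genome. Every other window of these genes recurred within the same gene only, so no read-length window was shared between the 6 genes or with any other locus. For pfl7 and mbx2 every window was unique. In the rest of the family pfl4, pfl8 and pfl9 were unique throughout, whereas 95.8% of the windows of pfl6 occurred at another locus, and pfl6 values are therefore uncertain. How reads with several placements were counted is not given in the sources used here, and the levels of the repeat-bearing genes are uncertain for that reason.

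**Figure D1:**
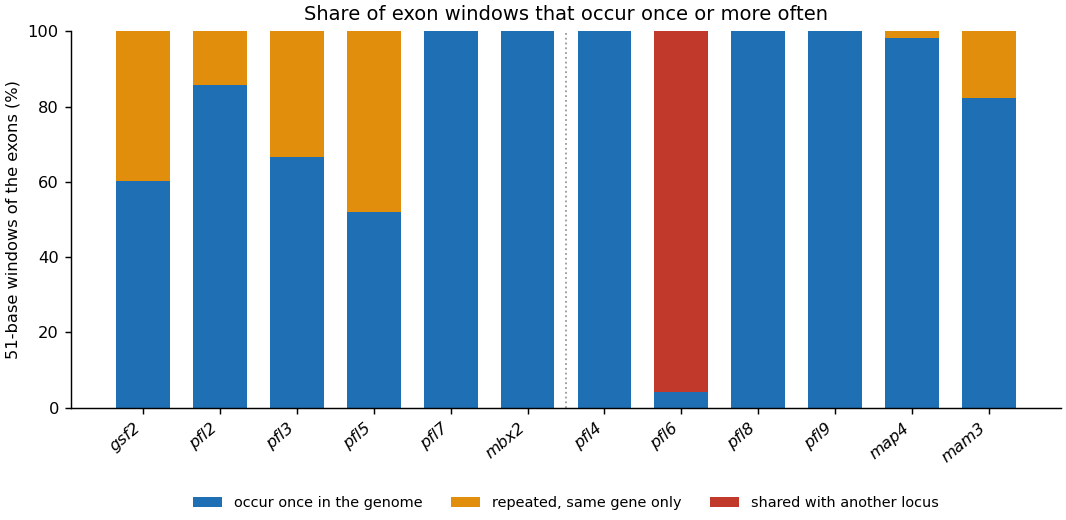
Stacked bars give the percentage of 51-base exon windows of each gene (x axis) that occur once in the genome, recur only within the gene, or occur at another locus; the 6 genes followed here are left of the dotted line. The repeat-bearing gsf2, pfl2, pfl3 and pfl5 recur only within themselves, and pfl6 is the 1 gene mostly shared with another locus.

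The 6 genes stood at very different levels. In RPKM, pfl2 was at 487 ± 1.28 in asp1-WT (mean ± SD, n = 3 libraries here and below), above 93.9% of coding loci, and at 222 ± 5.85 in kcs1-WT, above 89.3%. The next in asp1-WT were pfl7 at 33.0 ± 1.95 and pfl3 at 25.6 ± 1.09, followed by pfl5 at 10.1 ± 0.231, mbx2 at 8.54 ± 1.13 and gsf2 at 6.52 ± 0.234. Thus gsf2, the main flocculin, was the lowest of the 6 and lay above only 9.8% of coding loci in asp1-WT. In kcs1-WT the order was pfl2, pfl3 (24.5 ± 2.14), pfl7 (17.1 ± 0.589), mbx2 (7.75 ± 0.567), pfl5 (4.98 ± 0.197) and gsf2 (4.58 ± 0.404), and the last 2 did not differ beyond their spread. All counts of a gene were also divided by the length of its unique sequence alone, a choice made after the repeats were seen. On that scale pfl3 came to 38.5 RPKM in asp1-WT, above pfl7, and gsf2 came to 10.8, above mbx2. In kcs1-WT the same step put pfl5 at 9.56 ± 0.378, above mbx2 at 7.75, and gsf2 at 7.61 ± 0.671. The order of those genes thus rests on how the repeats are handled, while pfl2 was highest on either scale. The second scale holds only if no read from the repeats was counted, which is not known, and is too high otherwise.

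Against their own wild type, the flocculin loci moved in both directions in the asp1 mutants and in 1 direction in the kcs1 mutants. In STF6, 3 of the 6 loci rose (pfl3, pfl5 and mbx2) and 1 fell (pfl7), where 16.6% of all loci tested rose and 11.6% fell by the same rule, an adjusted p of at most 0.05 in edgeR's quasi-likelihood test. In STF9 the same 3 rose and pfl7 fell, against 18.2% and 15.1% of all loci. None of the 6 rose in a kcs1 mutant. In kcs1-R332T, pfl2 and pfl3 fell, 2 of 6, where 19.8% of all loci fell and 14.3% rose. In kcs1-L338R, pfl3, pfl5, pfl7 and mbx2 fell, 4 of 6, where 11.5% of all loci fell and 10.9% rose. In kcs1-E834K, pfl2, pfl3 and pfl7 fell, 3 of 6, where 15.4% fell and 12.4% rose. The median log2 fold change over the 6 loci was 0.22 in STF6 and 0.32 in STF9, and it was -0.42 in kcs1-L338R, -0.28 in kcs1-E834K and -0.26 in kcs1-R332T, where the medians over all loci tested lay between -0.04 and 0.06.

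Calls near the threshold depended on which strains shared the fit. With only the mutant and its own wild type in it, pfl5 (adjusted p = 0.00298), pfl7 (adjusted p = 0.0307) and mbx2 (adjusted p = 0.043) also fell in kcs1-R332T, making 5 of 6, and gsf2, pfl5 and mbx2 also fell in kcs1-E834K, making 6 of 6. In kcs1-L338R the calls of pfl5 (adjusted p = 0.13) and mbx2 (adjusted p = 0.116) were lost in that fit, and in STF6 that of pfl5 was lost (adjusted p = 0.134). In STF9 gsf2 passed as well (log2 0.18, adjusted p = 0.0482).

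Whether the 3 libraries of a mutant overlap those of its wild type is given below by normalized read count. By that measure 35.7% of all loci did not overlap in STF6 and 58.9% in STF9, against 4 and 5 of the 6 genes. The share was 50.1% in kcs1-E834K, 59.5% in kcs1-R332T and 33.6% in kcs1-L338R, against 6, 5 and 4 of the 6. Non-overlap was thus common among all loci.

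Under the thresholds of the study, which add a fold of 2 and a mean normalized count of 100, pfl3 and mbx2 were higher and pfl7 lower in both asp1 mutants. Over coding loci, 1.51% were called higher and 1.46% lower in STF6, and 1.65% and 1.44% in STF9. In kcs1-L338R and kcs1-E834K pfl3 was the 1 locus of the 6 called lower, where 0.424% of coding loci were called lower in each, and 0.323% and 0.424% higher. In kcs1-R332T none of the 6 was called from edgeR's estimates, where pfl3 was at log2 -0.996. There 0.403% of coding loci were called higher and 0.343% lower. The paper, which tested with DESeq2, does list pfl3 among the genes lowered at least 2-fold in every kcs1 mutant.

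**Figure D2:**
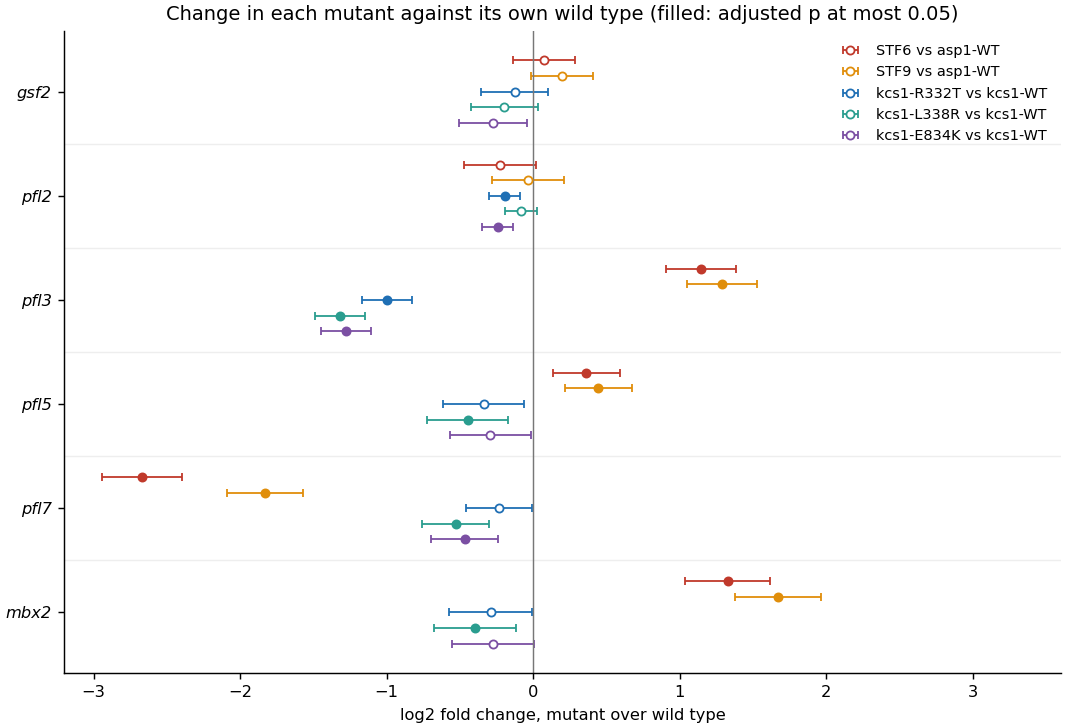
Points give the log2 fold change of each gene (y axis) in each mutant over its own wild type, with 95% confidence intervals from edgeR's quasi-likelihood fit; filled points passed an adjusted p of 0.05. The intervals of pfl3 lie above 0 in STF6 and STF9 and below 0 in the 3 kcs1 mutants, whereas pfl7 is below 0 in all 5.

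The regulator mbx2 rose in both asp1 mutants and fell in 1 of the kcs1 mutants. Its normalized read counts were 405, 480 and 442 in asp1-WT, 1038, 1313 and 978 in STF6, and 1341, 1558 and 1334 in STF9. Every mutant library lay above every wild-type library, and the STF9 libraries all lay above those of STF6, where 24.7% of all loci did not overlap between these strains. By RPKM the STF9 libraries (22.2 to 25.9) overlapped those of STF6 (18.2 to 24.1). The transcript rose 2.51-fold in STF6 (log2 1.33, SE 0.14, adjusted p = 1.21e-05) and 3.19-fold in STF9 (log2 1.67, SE 0.14, adjusted p = 1.67e-06). The difference between STF9 and STF6 was 0.35 on the log2 scale (95% interval 0.06 to 0.63) and did not pass the test (adjusted p = 0.211). In YES its counts were 358, 401 and 379 in kcs1-WT, 255, 350 and 324 in kcs1-R332T, 261, 293 and 309 in kcs1-L338R, and 281, 332.2 and 328 in kcs1-E834K. All 9 mutant libraries lay below the lowest wild-type library, but by RPKM kcs1-R332T reached 7.72, above the lowest kcs1-WT library at 7.21. The decrease passed the test in kcs1-L338R (log2 -0.40, SE 0.13, adjusted p = 0.0433), and that call was lost in 5 of the 6 fits that left out 1 library, with adjusted p between 0.0585 without kcs1-L338R replicate 1 and 0.131 without kcs1-WT replicate 2; it held without kcs1-L338R replicate 2. The log2 changes in kcs1-R332T (-0.29, 95% interval -0.57 to -0.01, adjusted p = 0.0974) and kcs1-E834K (-0.27, -0.55 to 0.01, adjusted p = 0.138) had intervals that overlapped it.

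In the reference, mbx2 (2020 bases, 1 exon, chromosome II) lies wholly inside SPNCRNA.1626, a noncoding locus of 5113 bases on the opposite strand. The noncoding locus was far more abundant, at 155 ± 17.8 RPKM in asp1-WT against 8.54 for mbx2, and at 49.4 ± 2.65 in kcs1-WT. It fell where mbx2 rose, from a mean normalized count of 20467 in asp1-WT to 5296 in STF6 (log2 -1.95, SE 0.12, adjusted p = 1.52e-07) and 4845 in STF9 (log2 -2.08, SE 0.12, adjusted p = 8.59e-08). In the kcs1 mutants it rose in kcs1-R332T (log2 0.30, adjusted p = 0.00469) and did not pass in kcs1-L338R (0.04, adjusted p = 0.738) or kcs1-E834K (-0.13, adjusted p = 0.179). The libraries were prepared with a strand-specific kit, but the strand setting of the counting is not given in the sources used here. The 2 loci kept separate counts and moved in opposite directions in STF6 and STF9, and the part of 1 locus in the count of the other was not tested.

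Among the flocculin genes pfl3 showed the clearest split between the 2 experiments. Its normalized counts were 2371, 2184 and 1913 in asp1-WT, 4698, 5133 and 4468 in STF6, and 4444, 5801 and 5543 in STF9. In YES they were 1946, 2074 and 1781 in kcs1-WT, 948, 920 and 1040 in kcs1-R332T, 824, 718 and 786 in kcs1-L338R, and 844, 784 and 767 in kcs1-E834K. No mutant library overlapped its wild type, with all asp1 mutant libraries higher and all kcs1 mutant libraries lower. The transcript rose 2.21-fold in STF6 (log2 1.14, SE 0.11, adjusted p = 7.49e-06) and 2.44-fold in STF9 (log2 1.29, SE 0.11, adjusted p = 2.72e-06). It fell 2.49-fold in kcs1-L338R (log2 -1.32, SE 0.08, adjusted p = 5.98e-08), 2.42-fold in kcs1-E834K (log2 -1.28, SE 0.08, adjusted p = 8.27e-08) and 1.99-fold in kcs1-R332T (log2 -0.996, SE 0.08, adjusted p = 8.31e-07), the last just short of a fold of 2. All 5 calls held in every fit that left out 1 library.

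Alleles of 1 gene could be compared directly. STF9 and STF6 did not differ in pfl3 by the test (log2 0.14, 95% interval -0.09 to 0.38, adjusted p = 0.387). The kcs1-R332T libraries lay above those of kcs1-L338R (log2 0.32, SE 0.08, adjusted p = 0.00859) and kcs1-E834K (log2 0.28, SE 0.08, adjusted p = 0.0323), with no overlap, where 47.8% and 44.1% of all loci did not overlap. The second of these calls was lost without kcs1-R332T replicate 1 or 3 and without kcs1-E834K replicate 2 or 3 (adjusted p from 0.0696 to 0.132). Between kcs1-L338R and kcs1-E834K the difference was -0.04 (95% interval -0.21 to 0.13, adjusted p = 0.788).

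The relative with the same repeat length, pfl5, rose in both asp1 mutants and fell in kcs1-L338R, by smaller amounts. Its normalized counts were 1159, 1088 and 1054 in asp1-WT, 1597, 1394 and 1257 in STF6, and 1483, 1437 and 1579 in STF9. The lowest mutant library lay above the highest wild-type library, and the transcript rose 1.29-fold in STF6 (log2 0.36, SE 0.11, adjusted p = 0.0206) and 1.36-fold in STF9 (log2 0.45, SE 0.11, adjusted p = 0.00648). The call in STF6 was lost without asp1-WT replicate 2 or 3 and without STF6 replicate 1 or 2 (adjusted p from 0.0624 to 0.11), and that in STF9 without STF9 replicate 3 (adjusted p = 0.0505). In YES the counts were 538, 484 and 504 in kcs1-WT, 406, 396 and 405 in kcs1-R332T, 424, 292 and 402 in kcs1-L338R, and 420, 449 and 377 in kcs1-E834K. All mutant libraries were below all wild-type libraries, and the decrease passed in kcs1-L338R (log2 -0.45, SE 0.13, adjusted p = 0.0232) but not in kcs1-R332T (-0.34, adjusted p = 0.0559) or kcs1-E834K (-0.29, adjusted p = 0.107). The call in kcs1-L338R was lost without kcs1-WT replicate 1 (adjusted p = 0.0798) or without kcs1-WT replicate 3 (adjusted p = 0.0551).

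The one flocculin gene to fall in the asp1 mutants was pfl7, the shortest of the 5 at 1077 coding bases and the one without repeats. Its normalized counts were 1271, 1294 and 1102 in asp1-WT, 204, 191 and 181 in STF6, and 358.9, 336 and 337.8 in STF9. The 3 strains did not overlap at all. The transcript fell 6.36-fold in STF6 (log2 -2.67, SE 0.13, adjusted p = 1.14e-08) and 3.55-fold in STF9 (log2 -1.83, SE 0.12, adjusted p = 2.77e-07), and both calls held in every fit that left out 1 library. STF9 was higher than STF6 by 0.84 on the log2 scale (SE 0.12, adjusted p = 0.0163). That contrast called only 5 of 6144 loci, 0.0814%, and pfl7 was the 1 of the 6 among them. The call was lost without STF6 replicate 2 and without any 1 of the STF9 libraries (adjusted p from 0.0573 to 0.161), with differences between 0.81 and 0.90 in all 6 fits. Without STF6 replicate 1 the contrast called 2121 loci, pfl7 among them.

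In YES the pfl7 counts were 595, 572 and 622 in kcs1-WT, 454, 520 and 548 in kcs1-R332T, 419, 434 and 387 in kcs1-L338R, and 382.5, 462 and 449 in kcs1-E834K. All mutant libraries were below all wild-type libraries. The decrease was 1.44-fold in kcs1-L338R (log2 -0.53, SE 0.11, adjusted p = 0.00286) and 1.38-fold in kcs1-E834K (log2 -0.47, SE 0.11, adjusted p = 0.0051), and it did not pass in kcs1-R332T (log2 -0.23, 95% interval -0.46 to -0.01, adjusted p = 0.0988). Of the direct comparisons, kcs1-R332T was higher than kcs1-L338R (log2 0.30, SE 0.11, adjusted p = 0.0437), a call lost without kcs1-R332T replicate 2 or 3 and without kcs1-L338R replicate 3 (adjusted p from 0.119 to 0.147), and did not pass against kcs1-E834K (log2 0.23, adjusted p = 0.167).

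The main flocculin gene gsf2 passed the test in none of the 5 mutants when all strains of an experiment shared the fit. Its normalized counts ran from 1110 to 1188 in asp1-WT, from 1091 to 1276 in STF6 and from 1274 to 1332 in STF9. The STF9 libraries all lay above the wild type by this count but not by RPKM (6.44 to 6.58 against 6.29 to 6.76), and the log2 change was 0.20 (95% interval -0.01 to 0.41, adjusted p = 0.133), and in STF6 it was 0.07 (-0.14 to 0.28, adjusted p = 0.626). In YES the counts ran from 704 to 830 in kcs1-WT, from 642 to 745 in kcs1-R332T, from 570 to 756 in kcs1-L338R and from 618 to 638 in kcs1-E834K. The largest shift was that of kcs1-E834K, at -0.27 (95% interval -0.50 to -0.04, adjusted p = 0.0719). With only kcs1-E834K and its wild type in the fit the decrease passed (adjusted p = 0.0144), as did the rise in STF9 in the like fit (adjusted p = 0.0482). Without kcs1-L338R replicate 1 the decrease in kcs1-L338R passed (log2 -0.31, adjusted p = 0.0212). The intervals exclude a fold of 2 in either direction in all 5 mutants.

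The most abundant of the set, pfl2, fell slightly in 2 of the kcs1 mutants and did not pass the test elsewhere. Its normalized counts ran from 51263 to 59223 in asp1-WT, from 41947 to 52671 in STF6 and from 52222 to 56294 in STF9, and it did not pass in STF6 (log2 -0.22, adjusted p = 0.163) or STF9 (log2 -0.03, adjusted p = 0.833). Scaled by total counted reads instead, its level was 407 ± 16.8 RPKM in STF6 and 415 ± 14.4 in STF9, with every library below the 485 to 488 of asp1-WT, so that whether the groups overlap depends on the scaling. In YES it ran from 22707 to 24385 in kcs1-WT, from 19524 to 21559 in kcs1-R332T, from 21028 to 23055 in kcs1-L338R and from 19302 to 20945 in kcs1-E834K. It fell 1.14-fold in kcs1-R332T (log2 -0.19, SE 0.05, adjusted p = 0.00943) and 1.18-fold in kcs1-E834K (log2 -0.24, SE 0.05, adjusted p = 0.00287), and did not pass in kcs1-L338R (log2 -0.08, adjusted p = 0.257). Without STF6 replicate 1 the decrease in STF6 passed (log2 -0.35, adjusted p = 0.0364). The kcs1-R332T call was lost without kcs1-R332T replicate 2 (adjusted p = 0.0504).

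**Figure D3:**
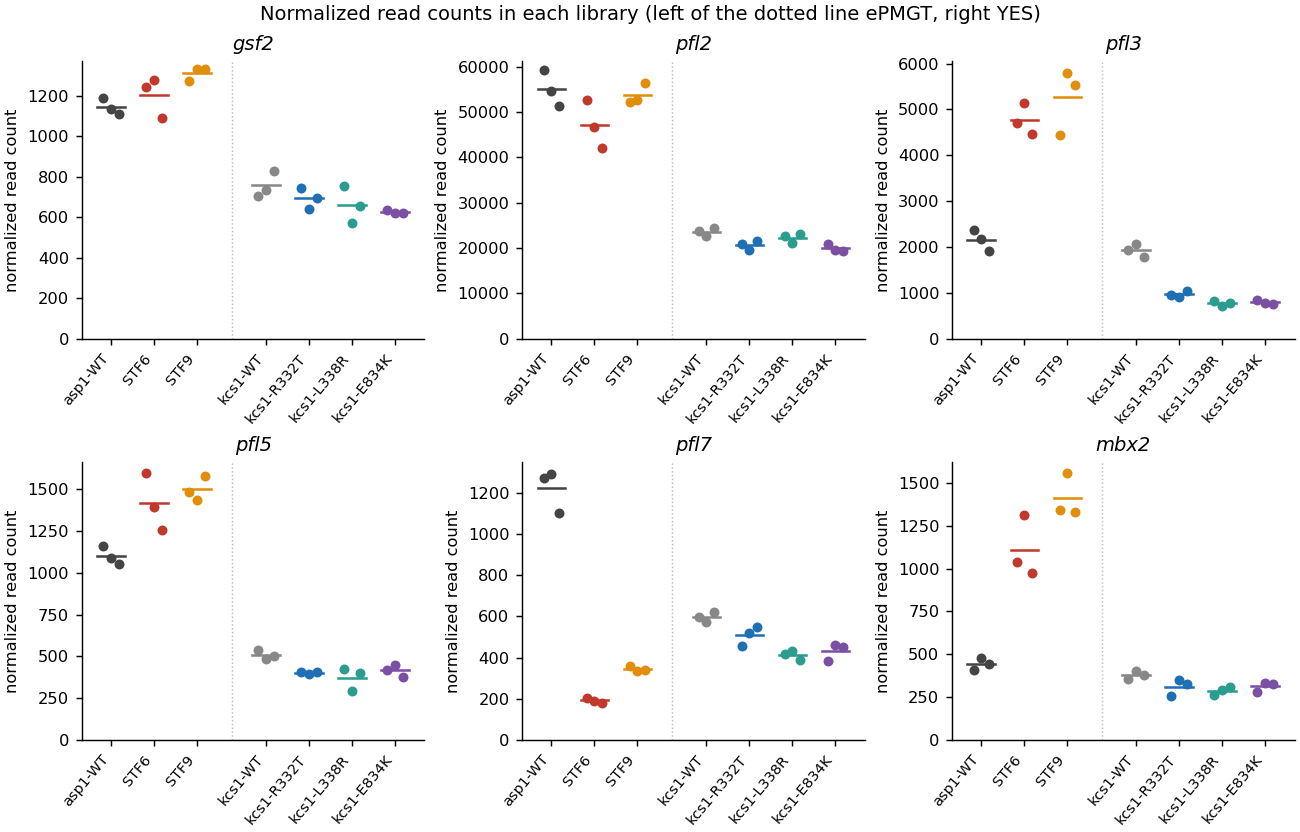
Points give the normalized read count (y axis, from 0) in each of 3 libraries per strain (x axis) and lines the mean; counts were normalized within each experiment, ePMGT left and YES right of the dotted line. The panel of pfl7 shows 1102 to 1294 in asp1-WT against 181 to 358.9 in the asp1 mutants, and that of pfl3 shows the opposite order there.

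In the direct comparisons of kcs1 alleles, the counts over the 6 loci lay near the shares of all loci. Between kcs1-R332T and kcs1-L338R 2 of the 6 loci differed (pfl3 and pfl7), where 36.6% of all loci did. Between kcs1-R332T and kcs1-E834K 1 of the 6 (pfl3) differed, where 13.9% of all loci did. Between kcs1-L338R and kcs1-E834K none of the 6 and none of 6093 loci differed (0%) in edgeR's quasi-likelihood test. At an unadjusted p under 0.05 that last contrast held 893 loci and 1 of the 6, pfl2 (log2 0.16, 95% interval 0.05 to 0.27), and a DESeq2 Wald test called 17 loci. Without kcs1-L338R replicate 2 edgeR called 603 loci, and pfl2 passed (log2 0.20, adjusted p = 0.0417).

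Whether the asp1 and kcs1 alleles acted differently on these genes was tested in a joint fit of the 21 libraries, as the mean effect of STF6 and STF9 less the mean effect of the 3 kcs1 alleles. The difference passed for 5 of the 6 loci, where 33.4% of all loci passed. It was largest for pfl3, at 2.43 on the log2 scale (95% interval 2.18 to 2.69, adjusted p = 1.92e-13), then mbx2 at 1.84 (1.53 to 2.16, adjusted p = 1.36e-09) and pfl7 at -1.82 (-2.09 to -1.55, adjusted p = 1.2e-10). It was 0.78 for pfl5 (0.47 to 1.10, adjusted p = 0.000285) and 0.35 for gsf2 (0.08 to 0.62, adjusted p = 0.0412), the last lost in 16 of the 21 fits that left out 1 library (adjusted p up to 0.144). For pfl2 it was 0.07 (-0.15 to 0.29, adjusted p = 0.658). Allele kind, medium and experiment cannot be told apart in this contrast.

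Across the 21 libraries, with each gene centred on its mean within its experiment, mbx2 followed pfl3 in both experiments. Pearson's r between mbx2 and pfl3 was 0.97 over the 9 asp1 libraries and 0.70 over the 12 kcs1 libraries, and between mbx2 and pfl5 it was 0.87 and 0.50. Between mbx2 and pfl7 it was -0.85 over the 9 asp1 libraries and 0.77 over the 12 kcs1 libraries, so that the sign differed between the experiments. With gsf2 it was 0.74 and 0.16. These are descriptions over libraries that share strains and fits.

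**Figure D4:**
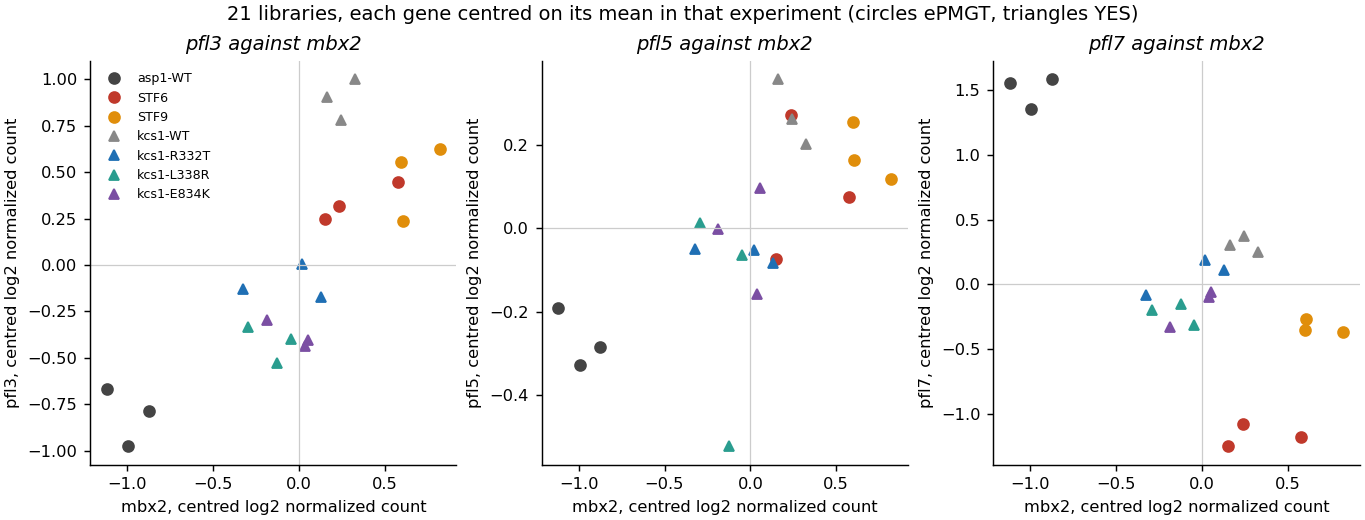
Each point is 1 of 21 libraries, with mbx2 on the x axis and pfl3, pfl5 or pfl7 on the y axis, all as log2 normalized counts centred within each experiment; circles are ePMGT and triangles YES libraries. The points of pfl3 rise with mbx2 in both experiments, whereas those of pfl7 fall with it among the circles (r = -0.85) and rise among the triangles (r = 0.77).

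The coding loci with patterns most like each gene were sought among 4948 by the same centred values over 21 libraries. None of the 6 genes was among the 3 closest of another. For pfl7 these were SPAC11D3.06 (r = 0.97), aat1 (r = 0.96) and SPBC359.01 (r = 0.96), and aat1, an amino acid transporter gene, is also its coding neighbour on 1 side. For mbx2 they were exg1 (r = 0.94), which encodes a secreted glucan glucosidase, stb3 (r = 0.93) and pho842 (r = 0.93). For pfl3 they were SPBC25B2.08 (r = 0.96), the SUN family wall protein gene psu1 (r = 0.92) and the enolase gene eno101 (r = 0.91). For pfl5 they were atg22 (r = 0.90), ibp1 (r = 0.89) and SPCC61.05 (r = 0.88), for pfl2 ifa38 (r = 0.92), sam1 (r = 0.90) and met10 (r = 0.90), and for gsf2 erf2 (r = 0.84), leu5 (r = 0.84) and eno101 (r = 0.81).

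In the asp1 mutants both coding loci beside pfl7 and 1 of the 2 beside pfl5 moved in the direction of the gene. Next to pfl7, aat1 fell from a mean normalized count of 13605 in asp1-WT to 3477 in STF6 (log2 -1.97, adjusted p = 2.22e-07) and 4973 in STF9 (log2 -1.45, adjusted p = 2.89e-06). On its other side abc3, an ABC transporter gene, fell from 7899 to 2666 (log2 -1.57, adjusted p = 5.29e-08) and 3222 (log2 -1.29, adjusted p = 3.06e-07). Thus pfl7 and both coding neighbours fell in both asp1 mutants. In the kcs1 mutants aat1 did not pass in any, while abc3 rose in kcs1-R332T (log2 0.32, adjusted p = 0.0016) and fell in kcs1-L338R (log2 -0.19, adjusted p = 0.0489). Beside pfl5, cao2, a copper amine oxidase gene, rose from 154 to 622 in STF6 (log2 2.01, adjusted p = 1.24e-06) and 520 in STF9 (log2 1.75, adjusted p = 4.36e-06). In kcs1-R332T cao2 fell (log2 -0.57, adjusted p = 0.0478). The other neighbour of pfl5, the Tf2 retrotransposon Tf2-11, went the other way. It fell in STF9 (log2 -1.26, adjusted p = 0.00747), did not pass in STF6 (log2 -0.64, adjusted p = 0.121) and rose in kcs1-R332T (log2 1.42, adjusted p = 0.00734) and kcs1-E834K (log2 1.28, adjusted p = 0.0163). Its sequence is repeated in the genome, and its counts are therefore uncertain.

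Loci next to the other genes moved with them, against them or did not pass. Beside pfl3, the ferric reductase gene frp2 fell in STF6 (log2 -1.89, adjusted p = 1.45e-05) and STF9 (log2 -1.48, adjusted p = 0.000104) where pfl3 rose. On the other side of pfl3 the adaptin gene apl2 did not pass in the asp1 mutants and fell in all 3 kcs1 mutants, from -0.26 to -0.55 on the log2 scale, as pfl3 did. Beside pfl2, SPAPB15E9.02c rose in STF6 (log2 1.63, adjusted p = 0.00024) and STF9 (log2 1.74, adjusted p = 0.00014), and SPAPB18E9.05c did not pass in any mutant. Of the loci beside gsf2, SPCC1795.12c rose in STF9 (log2 0.31, adjusted p = 0.0262), kcs1-L338R and kcs1-E834K, and SPCPB16A4.06c did not pass in any mutant. Beside mbx2, the ribosomal protein gene rps1801 did not pass in any mutant, and SPBP8B7.32 fell in STF6 (log2 -0.37, adjusted p = 0.00458), STF9 and kcs1-E834K. The noncoding SPNCRNA.954 overlaps 71 bases of pfl2 on the opposite strand and rose in STF9 and the 3 kcs1 mutants, most in kcs1-L338R (log2 0.84, adjusted p = 4.37e-05). SPNCRNA.1379, which overlaps 303 bases of pfl3, had at most 15 counts in any library.

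**Figure D5:**
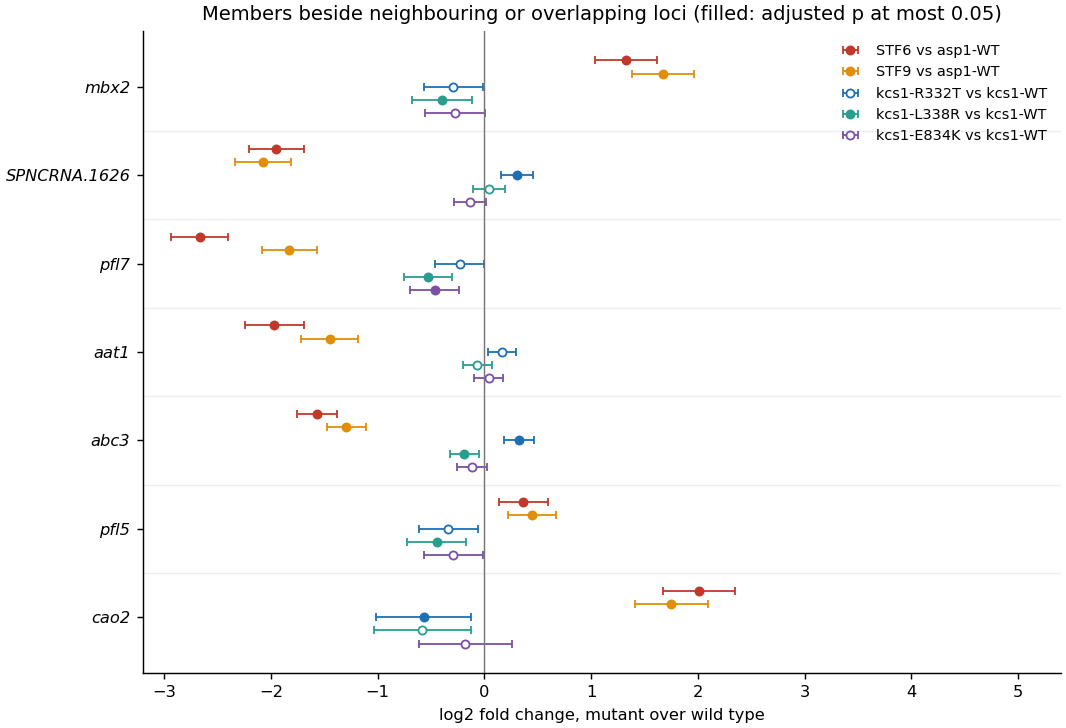
Points give the log2 fold change of mbx2, pfl7 and pfl5 and of neighbouring or overlapping loci in each mutant over its own wild type, with 95% confidence intervals; filled points passed an adjusted p of 0.05. In STF6 and STF9 the intervals of SPNCRNA.1626 lie below 0 and those of mbx2 above 0, while aat1 and abc3 lie below 0 with pfl7.

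In the rest of the flocculin and adhesin family, 5 of the 6 genes passed the low-count filter in the asp1 experiment. There 2 rose in STF6 and 3 in STF9 and none fell, where 16.6% and 18.2% of all loci rose and 11.6% and 15.1% fell. For this list and the 3 that follow, the counts were not tested against all loci, and nothing is read from them about the lists as such. Only the 2 genes with the lowest adjusted p per comparison are named, so a gene named for 1 mutant can have changed in others. Within the family pfl8 rose in STF9 (log2 0.73, adjusted p = 0.000562) and in STF6 (log2 0.35, adjusted p = 0.0458). The same held for pfl9 in STF9 (log2 1.19, adjusted p = 0.00496) and in STF6 (log2 0.99, adjusted p = 0.0151). In kcs1-R332T none of 6 passed. In kcs1-L338R pfl8 fell (log2 -0.72, adjusted p = 0.000589) while pfl9 rose (log2 0.84, adjusted p = 0.0169), and in kcs1-E834K pfl8 fell (log2 -0.53, adjusted p = 0.00399) while pfl9 rose (log2 1.12, adjusted p = 0.0025). The family median log2 change was 0.16 in STF6, 0.26 in STF9, and between -0.11 and -0.08 in the kcs1 mutants.

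A list of 18 genes held regulators of flocculation together with mbx1 and map1, which were listed as MADS-box genes like mbx2. Of the 18, 2 rose and 2 fell in STF6, and 5 rose and 4 fell in STF9, against the same shares of all loci. The MADS-box gene map1, a relative of mbx2 that serves P cell transcription, rose in STF6 (log2 1.73, adjusted p = 5.22e-05) and STF9 (log2 1.54, adjusted p = 0.000127). The repressor gene rfl1 rose in STF9 (log2 0.43, adjusted p = 0.0011), and the transcription factor gene sre2 fell in STF6 (log2 -0.50, adjusted p = 0.00146). In the kcs1 mutants 0 rose and 8 fell in kcs1-R332T, 1 rose and 3 fell in kcs1-L338R, and 2 rose and 6 fell in kcs1-E834K, where 14.3% of all loci rose and 19.8% fell, 10.9% rose and 11.5% fell, and 12.4% rose and 15.4% fell. Of these, cbf12, a CSL factor that promotes adhesion, fell in all 3, by 0.37 on the log2 scale in kcs1-R332T (adjusted p = 0.00322), 0.93 in kcs1-L338R (adjusted p = 2.23e-06) and 0.96 in kcs1-E834K (adjusted p = 1.84e-06). The corepressor gene tup11 fell by 0.40 in kcs1-R332T (adjusted p = 0.000188), 0.37 in kcs1-L338R (adjusted p = 0.000488) and 0.35 in kcs1-E834K (adjusted p = 0.000679).

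A further list held 15 genes linked to surface galactose, the ligand of flocculins. Of these, 2 rose and 3 fell in STF6, and 6 rose and 1 fell in STF9. In kcs1-R332T 1 rose and 5 fell, in kcs1-L338R 3 rose and 1 fell, and in kcs1-E834K 1 rose and 1 fell. These counts are to be read against the shares of all loci given above. The galactosyltransferase gene gmh2 rose in STF6 (log2 0.49, adjusted p = 0.00134) and STF9 (log2 0.64, adjusted p = 0.000175) and fell in kcs1-R332T (log2 -0.30, adjusted p = 0.000257). The UDP-glucose epimerase gene uge1 rose in STF9 (log2 0.41, adjusted p = 0.0108) and fell in kcs1-R332T (log2 -0.22, adjusted p = 0.00262). At lower counts otg2 rose in STF6 (log2 0.98, adjusted p = 0.00309), and gal10 rose in kcs1-L338R (log2 0.99, adjusted p = 0.00839) and kcs1-E834K (log2 1.15, adjusted p = 0.00271), where otg1 fell (log2 -0.23, adjusted p = 0.00798, and -0.27, adjusted p = 0.00255).

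Flocculins are anchored in the cell wall. Of 18 genes of wall synthesis and remodelling, 2 rose and 6 fell in STF6, and 5 rose and 4 fell in STF9. Over all loci 16.6% rose and 11.6% fell in STF6, and 18.2% and 15.1% in STF9. In kcs1-R332T 2 of the 18 rose and 7 fell, in kcs1-L338R 0 rose and 7 fell, and in kcs1-E834K 0 rose and 6 fell. Over all loci 14.3% rose and 19.8% fell in kcs1-R332T, 10.9% and 11.5% in kcs1-L338R, and 12.4% and 15.4% in kcs1-E834K. In the asp1 mutants SPAC4H3.03c rose (log2 1.31 in STF6, adjusted p = 2.52e-05, and 1.42 in STF9, adjusted p = 1.33e-05), exg1 rose in STF9 (log2 0.95, adjusted p = 3.42e-05) and the glucanosyltransferase gene gas4 fell in STF6 (log2 -0.83, adjusted p = 5.84e-05). Neither was particular to 1 allele. Mean normalized counts in asp1-WT, STF6 and STF9 were 20591, 36509 and 39851 for exg1, and 1638, 923 and 972 for gas4. In the kcs1 mutants eng1, the endoglucanase that opens the septum, fell by 0.68 on the log2 scale in kcs1-L338R (adjusted p = 2.1e-07), 0.68 in kcs1-E834K (adjusted p = 1.9e-07) and 0.24 in kcs1-R332T (adjusted p = 0.00143). The alpha-glucanase gene agn1 fell by 0.37 in kcs1-L338R (adjusted p = 4.11e-05) and 0.28 in kcs1-E834K (adjusted p = 0.000336), and exg1 fell by 0.35 in kcs1-R332T (adjusted p = 0.00113).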

How the data were processed

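Poly(A)+ RNA from 21 libraries was analysed. Per the study's methods and the labels, the authors mapped 51-base paired reads to assembly ASM294v2 with HISAT2 (version 2.1.0), counted exon reads per locus with HTSeq (version 0.10.0), and deposited raw counts; strand and multimapping settings are not given in the sources used here. The deposited DESeq2 tables hold the authors' own fold changes and p-values and were not used.

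Counts were tested per experiment with edgeR (version 4.0.16, R 4.3.3): filterByExpr, TMM, quasi-likelihood F test, all groups in 1 fit, Benjamini-Hochberg adjustment over all loci tested (6144 in the asp1 and 6093 in the kcs1 experiment). Normalized counts are counts divided by TMM-scaled library sizes within each experiment. The fit was tested on simulated data. Alternatives were DESeq2 (version 1.42.0) size factors or Wald test, no filter, only 2 strains in the fit, a replicate block, the study's thresholds, and each replicate left out.

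Gene lengths, neighbours, windows and repeats came from RefSeq ASM294v3, to which 6848 of 6988 loci matched, and its coordinates were not used with the counts. A repeat array needed sliding windows, at least as long as the unit, that were at least 80% identical to the sequence a unit further on. Single copies could be less alike, down to 75% in pfl2. The genes, lists and tests were chosen with earlier results of these data known. From each list the 2 genes with the lowest adjusted p per comparison among those passing were named, together with the nearest coding neighbour on each side of each gene and the 3 coding loci most like it in pattern (log2 of normalized count plus 1). No replicates fell within sampling noise of each other, and same-numbered replicates were not treated as paired. The labels do not say whether replicates of a strain came from separate cultures beyond the study calling them biological, so p-values measure the spread between these libraries.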

Additional observations from a re-analysis of the deposited data

Results flagged for a closer look

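For 5 of the 6 genes the effect of the asp1 nonsense alleles in ePMGT differed from that of the kcs1 alleles in YES by the joint test, which is what brought them up for a closer look; 33.4% of all loci passed the same test. The effect in STF6 and STF9 less the effect in the kcs1 mutants, on the log2 scale, was 2.43 for pfl3 (adjusted p = 1.92e-13), 1.84 for mbx2 (adjusted p = 1.36e-09), 0.78 for pfl5 (adjusted p = 0.000285), 0.35 for gsf2 (adjusted p = 0.0412) and -1.82 for pfl7 (adjusted p = 1.2e-10), all from edgeR's quasi-likelihood test. The gsf2 call was lost in 16 of the 21 fits that left out 1 library. For pfl3 the directions were opposite in every library, with 6 of 6 asp1 mutant libraries above and 9 of 9 kcs1 mutant libraries below their wild type. For pfl7 all 15 mutant libraries lay below their wild type, and the difference was one of size. Such non-overlap held for 33.6% to 59.5% of all loci in the 5 comparisons. Groups of 3 libraries were too small for a test of single outlying libraries.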

How the results depend on the processing

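Of 184 alternative counts of the 6 genes called, 160 stayed within 1.5 times the reported count. Counts of 0 that stayed at 0 are among the 160, as for genes rising in the kcs1 mutants when 1 library was left out. With counts this small, the 160 says little about stability. Of 715 log2 fold changes of the 6 genes, 642 kept their direction and their side of the threshold, 60 crossed the threshold and 13 turned sign, none of these passing in either fit. With the fold of 2 and mean count of 100 added, 1 of the 6 fell in kcs1-E834K, 1 in kcs1-L338R and 0 in kcs1-R332T. With only the mutant and its wild type in the fit, 6 of the 6 fell in kcs1-E834K, 5 in kcs1-R332T and 2 in kcs1-L338R; over all loci that fit called 3072 in STF9 against 2046, 3117 in kcs1-R332T against 2075 and, with 61.5% in place of 48.9% of calls higher, 629 in kcs1-L338R against 1365. The cause of these shifts was not tested.

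Replicate numbers are shared by the strains, and same-numbered libraries deviated together in part. Their correlations were over 0.1 in 6 of 9 pairs in the asp1 and 12 of 18 in the kcs1 experiment. They ran from 0.0062 to 0.76 in the asp1 experiment, where pairs of unlike number ran from -0.74 to 0.18. In the kcs1 experiment they ran from -0.25 to 0.68, against -0.60 to 0.47. Of the libraries, 8 of 9 and 7 of 12 were closest to one of their own number. What a shared number stands for is not given in the labels, and the main fit left it out. With a replicate block, 4 of the 6 fell in kcs1-R332T in place of 2 (pfl5 and mbx2 added), and 2 differed between STF9 and STF6 in place of 1 (mbx2 added), where the block called 424 loci and a DESeq2 Wald test 251 against 5. Between kcs1-L338R and kcs1-E834K the block called 45 loci and the Wald test 17 against 0. The Wald test gave pfl7 no adjusted p in STF9 against STF6 (log2 0.90, unadjusted p = 8.22e-10), so no count was taken from it there.

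Leaving out 1 library at a time, the number that fell ran from 2 to 4 in kcs1-L338R, 1 to 2 in kcs1-R332T and 1 to 2 in STF6. The number that rose ran from 2 to 3 in STF6 and in STF9, and a drop from 3 to 2 counted above as within 1.5 times. The number that differed ran from 0 to 1 for STF9 against STF6, 1 to 3 for kcs1-R332T against kcs1-L338R, 0 to 1 for kcs1-R332T against kcs1-E834K and 0 to 1 for kcs1-L338R against kcs1-E834K, where pfl2 passed without kcs1-L338R replicate 2. In STF6 pfl2 passed without STF6 replicate 1 (log2 -0.35). The log2 changes that turned sign ran from -0.00076 to 0.10 for gsf2 in STF6, from -0.13 to 0.021 for pfl2 in STF9 and from -0.030 to 0.10 for pfl2 in the joint contrast. Between kcs1-R332T and kcs1-L338R they ran from -0.023 to 0.18 for gsf2 and from -0.035 to 0.21 for pfl5, between kcs1-R332T and kcs1-E834K from -0.11 to 0.015 for pfl5 and from -0.11 to 0.10 for mbx2, and between kcs1-L338R and kcs1-E834K from -0.030 to 0.17 for gsf2 and from -0.086 to 0.012 for pfl3.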
